A study of Mus musculus with 12 samples.

Results

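The genes described here were the receptors and soluble bridges through which phagocytes recognise and clear dying cells and debris: Mertk, Axl, Tyro3, Gas6, Pros1, Megf10, Lrp1, Mfge8 and Timd4. They were chosen by symbol and not by a cut-off on their values, though with earlier results of these data known. All 9 were found among the 46078 genes of the count table. RNA was sequenced from ventrolateral spinal cord white matter of C57Bl6 mice, isolated with laser capture microdissection (a laser cuts out a chosen area of a tissue section). The 4 groups were naïve and injured mice of either age, young or middle-aged, with 3 libraries each. Young mice were 6 weeks old and middle-aged mice 8 months old, ages that come from the methods text, since the labels give only the words. Injured tissue was taken 72 h (day 3) after lysolecithin, a detergent-like lipid that strips myelin from axons, was injected into the white matter, and naïve mice had no lesion. The labels name no transgene or deletion in any group. RNA from 5 mice was pooled, but the sources do not settle whether the 3 libraries of a group came from separate pools. The p-values therefore measure the spread between these libraries, which may be technical.

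A dying cell or a myelin fragment displays phosphatidylserine, a lipid that healthy membranes keep on their inner face. Tyro3, Axl and Mertk, together called the TAM receptors, are tyrosine kinases that do not touch this lipid themselves. They bind Gas6 or protein S (Pros1), vitamin K-dependent proteins that hold phosphatidylserine at the other end and so bridge the debris to the phagocyte. Gas6 activates all the TAM receptors, whereas protein S acts mainly on Tyro3 and Mertk. Mfge8 is a bridge of another kind, from phosphatidylserine to integrins, and Timd4 (TIM-4) binds the lipid directly. Lrp1 is a large endocytic receptor that takes up lipoproteins, proteases and, through calreticulin, dying cells. Megf10 is the mammalian relative of the worm engulfment receptor CED-1 and is known for synapse clearance by astrocytes. In the brain and spinal cord, Mertk and Axl are known mainly from microglia and macrophages, and Tyro3 from neurons and oligodendrocytes.

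The library totals were 9834447 to 12807437 counts, so that 3 counts, the floor of detection used here, corresponded to 0.234 to 0.305 CPM (counts scaled to library size). The 8 genes other than Timd4 had at least 131 counts in every library and entered the test, and Timd4 had at most 12 and did not pass the filter on low counts. Libraries of 1 group differed by more than counting noise (chi-square per degree of freedom of 7.71 or more). Replicate 2 of the middle-aged naïve group stood apart most, with a Pearson r over genes of 0.937 and 0.945 with the other 2 libraries of its group, against 0.967 or more elsewhere. Levels below are CPM scaled by edgeR's TMM factors, and fold changes are log2 values from edgeR's quasi-likelihood test, with p adjusted over the 15866 genes tested (Benjamini-Hochberg). The stretches of 31 bases in the transcripts of the 9 genes occurred in no other gene, except 2 of the 17807 stretches of Lrp1.

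The promoter sequences of Mertk and Pros1, the receptor and the ligand whose levels moved most alike, are shown with those of Axl and Tyro3, the TAM receptors that rose and fell. Each is the 250 bases before the RefSeq start of the gene on GRCm38.p6, read 5′ to 3′ on the strand of the gene. The window of Mertk lies at chr2:128698665-128698914 on the plus strand, that of Pros1 at chr16:62854057-62854306 on the plus strand, that of Axl at chr7:25788734-25788983 on the minus strand and that of Tyro3 at chr2:119799264-119799513 on the plus strand. The last lies inside the Tyro3 gene of the GENCODE annotation, which starts further upstream. Capitals mark GC boxes (GGGCGG on either strand, the site of Sp1-type factors) and, in Axl, also a purine box (GAGGAA on either strand, a core that ETS factors such as PU.1 bind).
Mertk: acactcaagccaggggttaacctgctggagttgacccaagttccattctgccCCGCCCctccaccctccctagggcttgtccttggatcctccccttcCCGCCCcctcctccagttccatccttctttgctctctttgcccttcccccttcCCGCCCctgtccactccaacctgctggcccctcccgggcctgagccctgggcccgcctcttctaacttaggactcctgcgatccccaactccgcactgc
Pros1: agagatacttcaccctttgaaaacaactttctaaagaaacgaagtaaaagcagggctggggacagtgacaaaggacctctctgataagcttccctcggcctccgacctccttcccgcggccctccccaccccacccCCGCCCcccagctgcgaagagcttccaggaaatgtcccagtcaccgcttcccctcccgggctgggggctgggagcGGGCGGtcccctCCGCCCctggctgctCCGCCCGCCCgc
Axl: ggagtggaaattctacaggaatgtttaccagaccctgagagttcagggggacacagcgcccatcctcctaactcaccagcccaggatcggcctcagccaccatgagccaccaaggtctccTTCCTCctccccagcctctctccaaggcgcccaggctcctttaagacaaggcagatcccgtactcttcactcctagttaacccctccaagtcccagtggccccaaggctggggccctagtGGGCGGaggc
Tyro3: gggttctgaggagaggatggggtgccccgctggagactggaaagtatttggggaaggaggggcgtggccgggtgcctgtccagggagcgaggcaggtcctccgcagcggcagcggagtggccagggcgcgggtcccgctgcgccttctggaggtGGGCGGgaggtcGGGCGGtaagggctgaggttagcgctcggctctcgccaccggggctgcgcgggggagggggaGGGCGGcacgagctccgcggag

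The Mertk window held 3 GC boxes, that of Pros1 5, that of Axl 1 and that of Tyro3 3, with overlapping matches counted separately. A GC box was present in 32.7% of the 32851 promoter windows of the same length in the table. A purine box was present in 23.3% of them and, among these 4, in Axl. The AP-1 motif (TGANTCA), held by 6.75% of all windows, and the TATA box (TATAAA), held by 12.4%, had no match in any of the 4. The share of G and C was 73.2% in the Tyro3 window, 64.4% in that of Pros1, 63.6% in that of Mertk and 60.0% in that of Axl, against a median of 52.4% over all windows. Tyro3, which fell after injury, and Mertk, which rose, thus held the same number of GC boxes. These matches describe the letters only.

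After injury, the recognition genes moved in opposite directions within a family. Mertk and Axl, their ligands Gas6 and Pros1, and Lrp1 rose at both ages, whereas the third TAM receptor, Tyro3, and Megf10 fell at both ages. Mfge8 did not pass the test at either age. In young mice, 5 of the 8 genes tested were higher and 2 lower in injured white matter, where 28.3% of all genes tested were higher and 26.3% lower. In middle-aged mice the counts were again 5 and 2, where 29.2% of all genes were higher and 29.3% lower. In each of these 7 genes, at either age, the values of the 3 injured libraries lay entirely above or entirely below those of the 3 naïve libraries. The same held for 67.2% of all genes tested in young and 61.1% in middle-aged mice. The count table holds tissue RNA, so that a change in the number of cells of a type and a change in RNA per cell cannot be told apart.

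**Figure D1:**
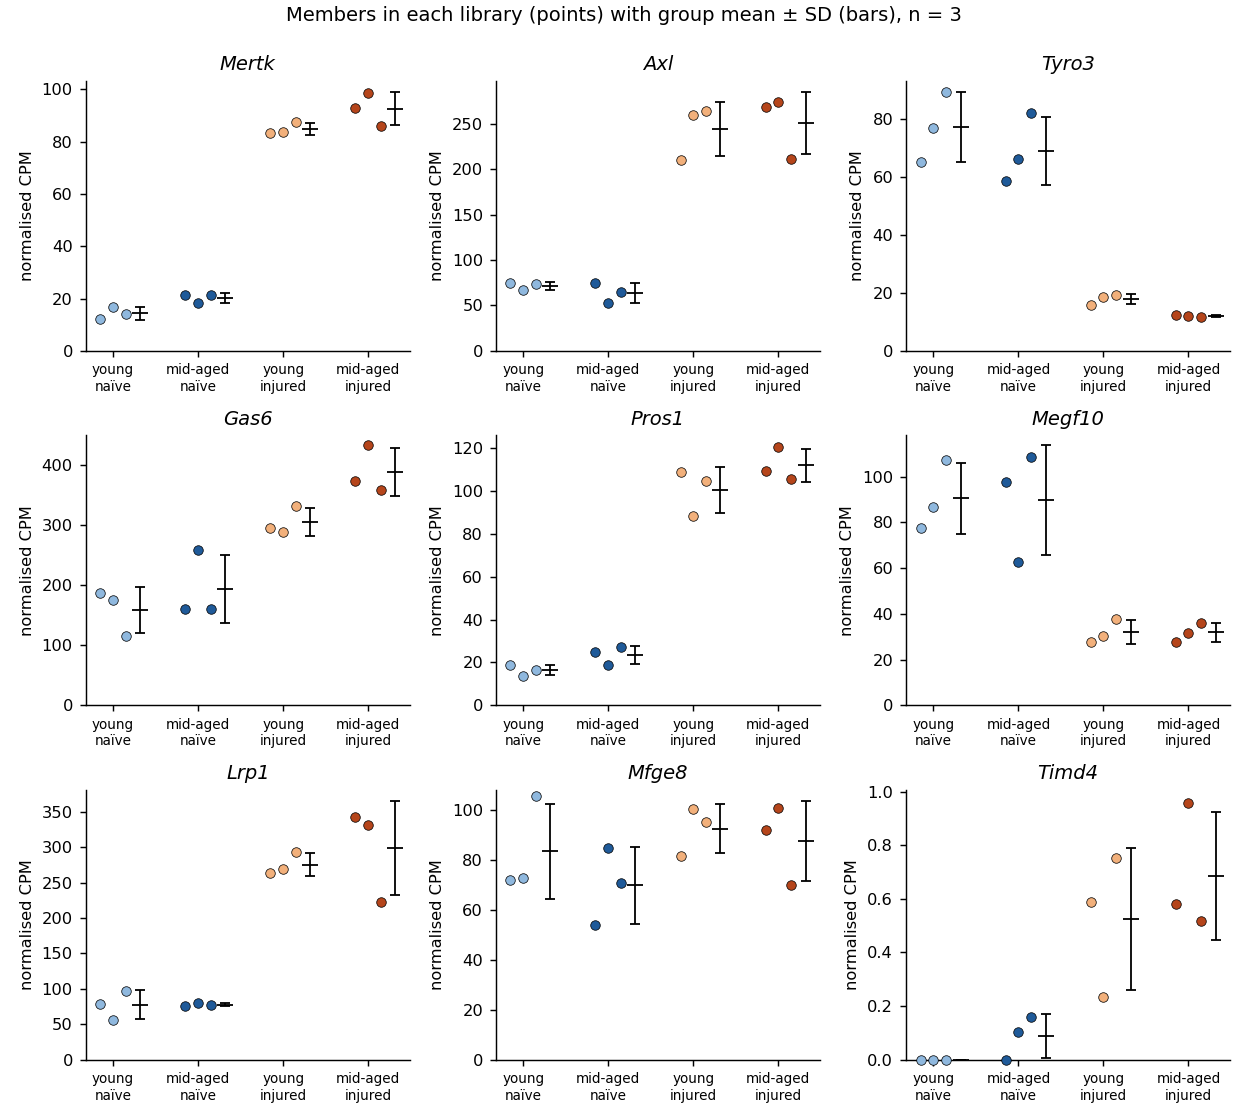
Each panel plots 1 gene, with TMM-normalised CPM on the vertical axis from 0, the 3 libraries of each of the 4 groups as points and the group mean ± SD as a bar. Injured libraries lie above all naïve libraries for Mertk, Axl, Gas6, Pros1 and Lrp1, below them for Tyro3 and Megf10, and among them for Mfge8, while Timd4 stayed under 1 CPM throughout.

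Mertk lies on chromosome 2 (128698956 to 128802894, plus strand, GRCm38) and has 19 exons in its longest transcript. The young naïve libraries held 12.03, 16.9 and 14.1 CPM of Mertk, and the young injured libraries 83.5, 83.8 and 87.5 CPM. In middle-aged mice the naïve libraries held 21.5, 18.2 and 21.2 CPM and the injured libraries 92.9, 98.7 and 86.2 CPM. Naïve and injured libraries were thus far apart at both ages, with little spread inside any group. The log2 fold change after injury was 2.57 (standard error 0.14, adjusted p = 3.78e-09, edgeR) in young mice and 2.19 (standard error 0.14, adjusted p = 1.15e-08, edgeR) in middle-aged mice. As a ratio of group means, the level was 5.93 times the naïve level in young mice and 4.56 times in middle-aged mice. The antisense gene Gm14011 and the small nucleolar RNA gene Gm23172, which lie within Mertk, had at most 2 counts in any library.

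Axl lies on chromosome 7 (25757273 to 25788705, minus strand) and overlaps no other annotated gene. Axl is known as the TAM receptor that inflammatory signals induce, whereas Mertk is the one of resting phagocytes. Axl stood at 75.3, 66.8 and 73.1 CPM in the young naïve libraries and at 210.4, 259 and 265 CPM in the young injured libraries. The middle-aged values were 74.8, 52.2 and 64.7 CPM in naïve and 268, 274 and 212 CPM in injured white matter. The lowest injured library was thus well above the highest naïve one. Its log2 fold change was 1.77 (standard error 0.15, adjusted p = 2.51e-07, edgeR) in young and 1.97 (standard error 0.15, adjusted p = 7.69e-08, edgeR) in middle-aged mice.

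Tyro3, on chromosome 2 (119797733 to 119818104, plus strand), went the other way. Its naïve levels were 65.2, 77.1 and 89.4 CPM in young mice and 58.8, 66.4 and 82.1 CPM in middle-aged mice. Injured libraries held 15.9, 18.7 and 19.2 CPM in young mice and 12.5, 12.1 and 11.7 CPM in middle-aged mice. No injured library reached the lowest naïve one, and the middle-aged injured values lay below all young injured values. The log2 fold change was -2.11 (standard error 0.16, adjusted p = 8.08e-08, edgeR) in young and -2.51 (standard error 0.17, adjusted p = 1.58e-08, edgeR) in middle-aged mice.

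Levels of different genes can be compared only per length, so each CPM was divided by the kilobases of exon of its gene. On that scale Axl and Tyro3 were near equal in naïve white matter, at 14.3 ± 0.872 and 12.5 ± 1.95 CPM per kb in young mice (mean ± SD, n = 3) and 12.7 ± 2.25 and 11.2 ± 1.91 in middle-aged mice, values that overlapped. Mertk was the lowest of the TAM receptors there, at 3.30 ± 0.560 CPM per kb in young and 4.68 ± 0.428 in middle-aged naïve mice. In injured white matter the order was Axl, Mertk, Tyro3 in every library. Axl had 48.6 ± 5.94 CPM per kb in young and 49.9 ± 6.84 in middle-aged injured mice, Mertk 19.6 ± 0.517 and 21.4 ± 1.45, and Tyro3 2.89 ± 0.291 and 1.95 ± 0.0574. The sum over the TAM receptors was between 25.3 and 32.2 CPM per kb in the naïve libraries and between 63.6 and 79.1 in the injured ones, with no overlap.

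Expressed as a share of that sum in each library, Tyro3 made up 37.3%, 42.04% and 44.8% in the young naïve libraries and 32.4%, 42.4% and 42.7% in the middle-aged naïve libraries. After injury its share was between 4.02% and 4.08% in young and between 2.47% and 2.97% in middle-aged mice. Tyro3 thus went from a main receptor of the family by RNA to a minor one. The share of Axl was between 41.0% and 52.9% in naïve and between 65.7% and 69.8% in injured libraries, and that of Mertk between 9.82% and 16.9% in naïve and between 26.2% and 31.1% in injured libraries. With labels exchanged within age, injury moved the share of Axl by 22.1 percentage points, of Mertk by 14.8 and of Tyro3 by -36.9. Each had p = 0.005, the smallest that the 400 arrangements of the 2-sided exact permutation test allow, and an adjusted p of 0.01 over the 6 tests of shares. Shares of a whole are not independent of one another.

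**Figure D2:**
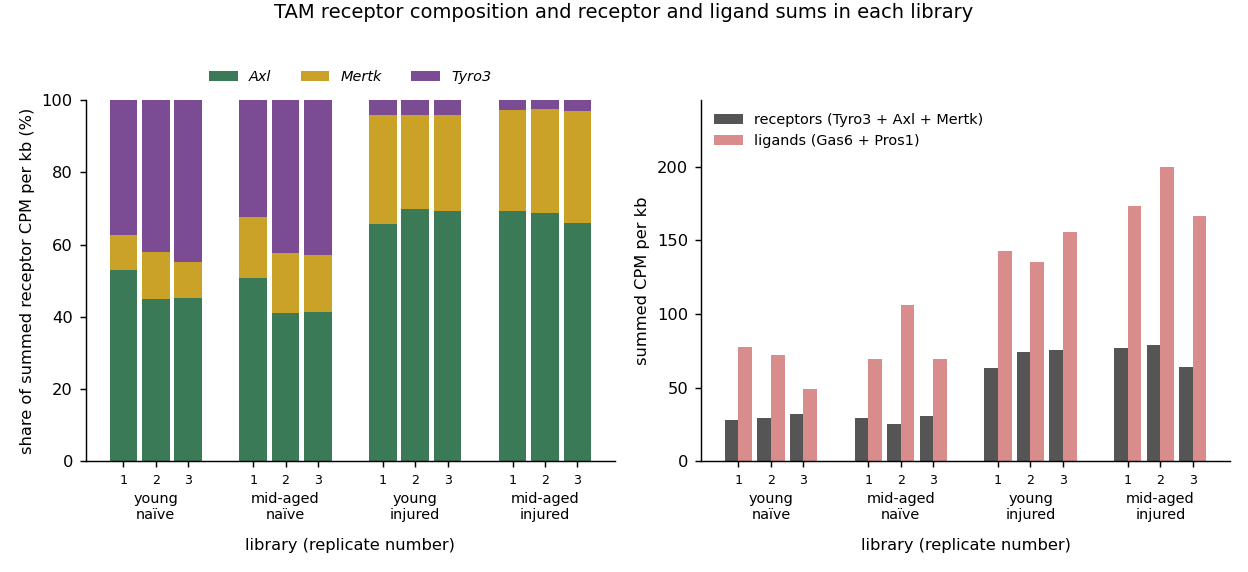
The left panel stacks the shares (%) of Axl, Mertk and Tyro3 in their summed CPM per kb in each of the 12 libraries, and the right panel gives the summed CPM per kb of the receptors and of the ligands Gas6 and Pros1. The Tyro3 segment is between 32.4% and 44.8% in naïve and between 2.47% and 4.08% in injured libraries.

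The ratio between Axl and Mertk also moved. Its log2 value, taken from log2 CPM with a prior count of 2, was 0.50 lower in injured libraries with labels exchanged within age (-0.50, adjusted p = 0.016 over 8 tests of ratios, exact permutation test). Within young mice the difference was -0.80 and within middle-aged mice -0.20, and whether these differ was not tested. The log2 ratio of Mertk to Tyro3 was 4.66 higher and that of Axl to Tyro3 4.16 higher after injury (adjusted p = 0.01 each, exact permutation test).

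Gas6, the ligand of all the TAM receptors, is annotated on chromosome 8 (13465374 to 13494490, minus strand). Its libraries held 187, 175 and 115 CPM in young naïve and 161, 259 and 161 CPM in middle-aged naïve mice. After injury they held 296, 289 and 332 CPM in young and 373, 434 and 358 CPM in middle-aged mice. The rise was the smallest of the 5 that passed the test, and replicate 2 of the middle-aged naïve group was the naïve library nearest to the injured ones. Its log2 fold change was 0.94 (standard error 0.20, adjusted p = 0.00102, edgeR) in young and 1.003 (standard error 0.20, adjusted p = 5.49e-04, edgeR) in middle-aged mice. Per kb of exon Gas6 was the most abundant of the 9 genes in every group, at 62.4 ± 15.0 CPM per kb in young naïve and 152 ± 15.7 in middle-aged injured mice (mean ± SD, n = 3). The end of Gas6 overlaps Tmem255b on the opposite strand, which had 5 to 21 counts per library.

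Pros1, which encodes protein S, lies on chromosome 16 (62854307 to 62929346, plus strand). It stood at 18.7, 13.9 and 16.5 CPM in young naïve and at 109, 88.4 and 104 CPM in young injured libraries. In middle-aged mice it stood at 24.96, 18.8 and 27.0 CPM in naïve and 109, 120.5 and 106 CPM in injured libraries. Protein S RNA thus rose at both ages, with injured libraries several times above the naïve ones. The log2 fold change was 2.62 (standard error 0.16, adjusted p = 1.02e-08, edgeR) in young and 2.24 (standard error 0.16, adjusted p = 3.02e-08, edgeR) in middle-aged mice. Among the 9 genes it went from the seventh place per kb in young naïve mice to the third place in young injured mice. The third place depends on the length used. With the longest transcript, which for Mfge8 is 2330 bases against 4694 for its union of exons, Mfge8 stood above Pros1.

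Both ligands rose, but unequally, and their log2 ratio (Gas6 to Pros1) was 1.43 lower after injury (-1.43, adjusted p = 0.01 over 8 tests, exact permutation test). The summed ligands, in CPM per kb, were between 49.3 and 106 in naïve and between 135 and 199.7 in injured libraries. Set against the summed TAM receptors, the log2 ratio of ligands to receptors differed by -0.15 between injured and naïve libraries (p = 0.48, exact permutation test of 400 arrangements), and by 0.01 where the longest transcript gave the length. Between ages it differed by 0.32, higher in middle-aged mice (p = 0.115, exact permutation test). Neither difference passed the test. Within injured mice the log2 ratio was 0.87 to 1.16 in young and 1.18 to 1.38 in middle-aged libraries, narrowly without overlap. An exact permutation test of 3 libraries against 3 cannot go below p = 0.1, and this separation was not tested. Within naïve mice the ranges, 0.62 to 1.46 and 1.17 to 2.07, overlapped.

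Lrp1 lies on chromosome 10 (127538161 to 127621148, minus strand) and has the longest exon sequence of the 9 genes, 17717 bases. The young libraries held 78.5, 56.7 and 97.3 CPM in naïve and 263, 269.5 and 294 CPM in injured white matter. The middle-aged libraries held 75.7, 80.4 and 77.1 CPM in naïve and 343, 332 and 222 CPM in injured white matter. Every injured library thus exceeded every naïve one, with the widest injured spread in middle-aged mice, where replicate 3 was low. The log2 fold change was 1.83 (standard error 0.19, adjusted p = 1.50e-06, edgeR) in young and 1.94 (standard error 0.19, adjusted p = 7.26e-07, edgeR) in middle-aged mice, close to that of Axl.

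Megf10 lies on chromosome 18 (57133090 to 57297467, plus strand). Its naïve levels were 77.4, 86.5 and 107 CPM in young and 97.7, 62.6 and 108.5 CPM in middle-aged mice. Injured libraries held 27.8, 30.2 and 37.7 CPM in young and 27.8, 31.7 and 36.2 CPM in middle-aged mice. The injured ranges of the ages nearly coincided, and both lay below every naïve value. The log2 fold change was -1.50 (standard error 0.20, adjusted p = 2.15e-05, edgeR) in young and -1.49 (standard error 0.20, adjusted p = 2.03e-05, edgeR) in middle-aged mice.

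Mfge8, on chromosome 7 (79133768 to 79149060, minus strand), was second only to Gas6 per kb in naïve white matter, at 17.8 ± 4.08 CPM per kb in young and 14.9 ± 3.27 in middle-aged mice (mean ± SD, n = 3). Naïve libraries held 71.9, 73.1 and 106 CPM in young and 54.1, 84.8 and 70.9 CPM in middle-aged mice. Injured libraries held 81.7, 100.7 and 95.4 CPM in young and 92.0, 101 and 70.0 CPM in middle-aged mice. The ranges overlapped at both ages. The log2 difference was 0.15 (95% interval -0.26 to 0.56, adjusted p = 0.539, edgeR) in young and 0.33 (95% interval -0.09 to 0.74, adjusted p = 0.163, edgeR) in middle-aged mice, so that a rise to the extent of that of Pros1 lay outside both intervals. Without replicate 2 of the middle-aged naïve group, the value in middle-aged mice was 0.49 and passed the test (adjusted p = 0.0438, edgeR).

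Timd4, on chromosome 11 (46810800 to 46844332, plus strand), is known from resident macrophages of other tissues. It had 0 counts in all 3 young naïve libraries, which allows up to 0.305 CPM in the shallowest, and 0, 1 and 2 counts in the middle-aged naïve libraries. Injured libraries had 8, 3 and 10 counts in young and 7, 12 and 6 counts in middle-aged mice. The injured libraries were thus higher, but their highest value was 0.958 CPM. With labels exchanged within age, the CPM of injured libraries was higher by 0.561 (p = 0.005, the smallest of 400 arrangements, exact permutation test, chosen after the values were seen). Against a floor of 3 counts over the young naïve group, the young injured level was at least 5.51-fold higher, or 4.10-fold at the lower end of the 95% interval that includes the counting error of the injured libraries. In middle-aged mice the ratio was 7.48 (95% interval 2.28 to 38.7, counting error only).

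**Figure D3:**
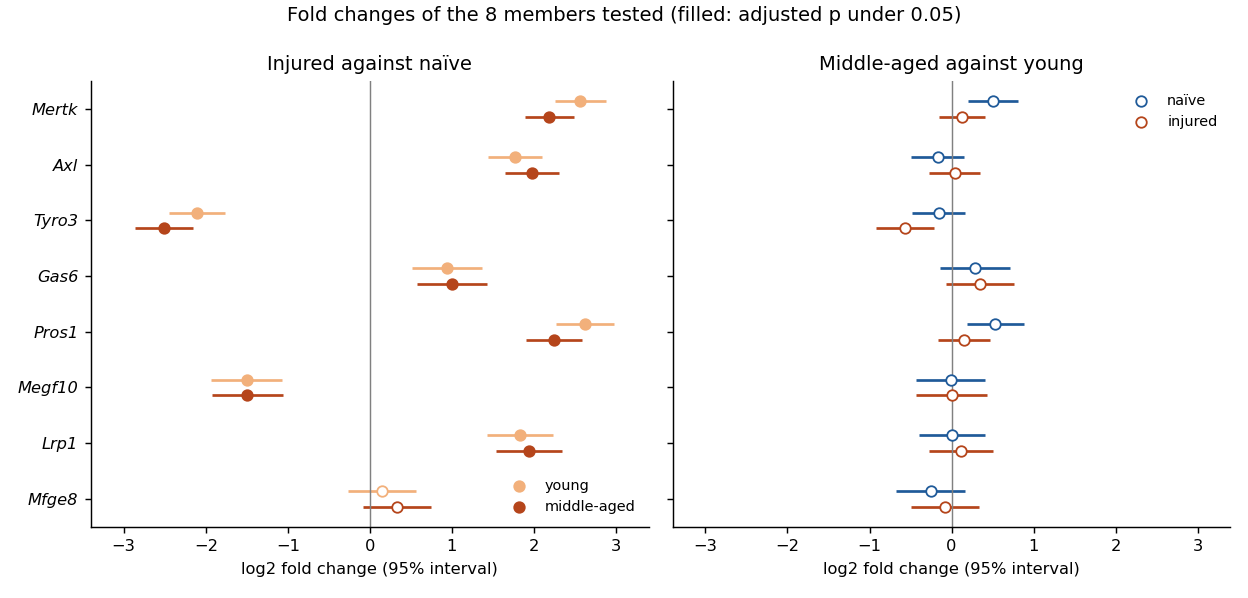
Points give the log2 fold change and lines the 95% interval of the 8 genes tested, for injured against naïve libraries on the left and middle-aged against young libraries on the right, with filled points where the adjusted p is under 0.05. On the left, 5 genes lie above 0 and 2 below at both ages, and on the right no point is filled.

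Between ages, no member passed the test in edgeR. At an unadjusted p under 0.05 there were 2 in naïve mice, 1 in injured mice and 0 for the difference of the injury effects. Of the 15866 genes tested, 2910, 1527 and 1574 had such a p in these comparisons. DESeq2 called 2, 0 and 0 members, and over all genes 1073 of 16066, 441 of 15540 and 228 of 15016. After adjustment in edgeR, 3.80% of all genes tested were called between the naïve groups and 1.15% between the injured groups. For the difference of the injury effects the share was 0.139%. In naïve mice, Mertk (log2 0.50, standard error 0.14, adjusted p = 0.0688, edgeR) and Pros1 (log2 0.53, standard error 0.16, adjusted p = 0.0908, edgeR) had the largest differences, both with higher values in every middle-aged library than in any young one. These are 2 of the 8 genes tested without overlap (25%), against 17.1% of all genes. Both passed the threshold with DESeq2 (adjusted p = 0.0229 for Mertk and 0.0405 for Pros1). Both also passed it in edgeR without replicate 2 of the middle-aged naïve group, with log2 differences of 0.57 and 0.67 (adjusted p = 0.0413 and 0.0220). Neither passed in any other of the 20 alternative fits, where the adjusted p was up to 0.426 for Mertk and 0.424 for Pros1 (edgeR). Between the naïve groups 3 of the 5 pan-myeloid markers (Aif1, Itgam, Csf1r, Ptprc and Cd68) were higher in middle-aged mice, and none is at 0. Their summed level was 65.7 to 92.4 CPM in young and 97.0 to 131 CPM in middle-aged naïve libraries. The part of these cells in the difference was not tested.

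Among injured mice, Tyro3 had the largest age difference, a log2 value of -0.56 (standard error 0.16, adjusted p = 0.144, edgeR), and every middle-aged library lay below every young one. In a fit of only the 6 injured libraries the value was -0.57 and passed the test (adjusted p = 0.0285, edgeR). Tyro3 did not pass in any other of the 20 alternative fits, where the adjusted p was up to 0.525 (edgeR or DESeq2). Gas6 also did not overlap, and its log2 fold change with age was 0.35 (standard error 0.20, adjusted p = 0.680, edgeR). These are again 2 of 8 genes (25%), against 23.3% of all genes tested. Of the marker lists, 4 of 5 oligodendrocyte markers (Mbp, Mog, Mag, Mobp and Cnp) were lower in middle-aged than in young injured mice. So were 2 of 4 fibroblast markers and 1 of 5 astrocyte markers, where 1.15% of all genes tested were called. Between naïve groups 2 of 5 oligodendrocyte markers were lower in middle-aged mice, where 3.80% of all genes were called. Tyro3 had a log2 value of -0.16 there (adjusted p = 0.620, edgeR). The part of any of these cells in the Tyro3 value was not tested. The difference of the injury effects, middle-aged minus young, was -0.41 for Tyro3 (adjusted p = 0.607), -0.38 for Mertk (adjusted p = 0.557) and -0.38 for Pros1 (adjusted p = 0.626, edgeR for all), with 95% intervals of -0.89 to 0.08, -0.79 to 0.04 and -0.85 to 0.09. The comparisons of injury and of age share libraries, so their values are not independent of one another.

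Some shares and ratios of the receptor RNA passed the test with age. Their p-values were adjusted over 6 or 8 tests and those of single genes over all genes tested, so that passing cannot be compared. Before adjustment, p was 0.00332 for Mertk between naïve groups and 0.00401 for Tyro3 between injured groups (edgeR). The unadjusted p of the Mertk share was 0.02 (exact permutation test). That test cannot go below 0.005 and takes both injury states together, so these p-values cannot be ranked against each other. The Mertk share was 9.82%, 13.1% and 10.1% in the young naïve libraries and 16.9%, 16.6% and 15.8% in the middle-aged naïve ones. With labels exchanged within injury state it was 3.50 percentage points higher in middle-aged mice (p = 0.02, adjusted p = 0.03 over 6 tests, exact permutation test), by 5.41 points within naïve and 1.60 within injured mice. It missed the threshold when replicate 1 or 2 of the middle-aged naïve group, replicate 2 or 3 of the young injured group or replicate 3 of the middle-aged injured group was left out, with 3.38, 3.47, 3.13, 3.24 and 3.04 points. The log2 ratio of Axl to Mertk was 0.39 lower with age (-0.39, adjusted p = 0.04 over 8 tests, exact permutation test), and this missed the threshold without replicate 1, 2 or 3 of the middle-aged naïve group (-0.43, -0.36 and -0.38), replicate 2 or 3 of the young injured group (-0.36 and -0.37) or replicate 3 of the middle-aged injured group (-0.35). The log2 ratio of Mertk to Tyro3 was 0.67 higher in middle-aged mice (adjusted p = 0.01, exact permutation test), by 0.67 within naïve and 0.68 within injured mice, and it passed the threshold with any one library left out. The shares of Axl and Tyro3 differed between ages by -1.73 and -1.78 points (adjusted p = 0.43 each, exact permutation test).

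Markers of the cells that could carry these genes were also compared after injury. Over all genes tested, 28.3% were higher and 26.3% lower in young mice, and 29.2% and 29.3% in middle-aged mice. These shares stand beside the marker counts here and in the next paragraph. All 5 pan-myeloid markers rose at both ages, none is at 0, and their summed level was 65.7 to 92.4 CPM in young naïve, 97.0 to 131 in middle-aged naïve, 1220.4 to 1259 in young injured and 1317 to 1759 in middle-aged injured libraries. Homeostatic microglial markers (Tmem119, P2ry12 and Sall1) had 1 of 3 higher and 1 lower in young mice, and 1 lower and 2 that did not pass in middle-aged mice. The young counts of this list lie near the shares over all genes. All 4 markers of recruited monocytes (Ccr2, Ly6c2, Fn1 and Plac8) were higher at both ages, with Ccr2 and Plac8 at 0 in every young naïve library and Plac8 at 0 in every middle-aged naïve library. Cd68 made up most of the sum in injured libraries (mean 743 CPM in young and 1012 CPM in middle-aged mice) and had log2 fold changes of 6.90 and 5.50, whereas Csf1r rose by 2.08 and 1.84, less than Mertk and Pros1 at both ages. Csf1r had the smallest rise of the 5 markers, whose median log2 fold change was 4.43 in young and 3.91 in middle-aged mice. Aif1, Itgam, Ptprc and Cd68 rose by more than any of the 8 genes tested, at both ages. Relative to the sum, the median of Mertk was 0.183 in young naïve and 0.0687 in young injured libraries, and 0.162 and 0.0561 in middle-aged mice. For Axl the ratio had medians of 0.984 and 0.210 in young and 0.496 and 0.156 in middle-aged mice, and for Mfge8 of 1.09 and 0.0758 in young and 0.558 and 0.0532 in middle-aged mice. The part of these cells in each rise was not tested.

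Beside Tyro3, all 5 oligodendrocyte markers fell at both ages, with log2 fold changes between -2.56 and -1.52 in young mice, a range that holds that of Tyro3, and between -2.50 and -2.02 in middle-aged mice, where that of Tyro3 was -2.51. Their summed level was 40031 to 44130.0 CPM in young naïve, 26885 to 32588 in middle-aged naïve, 10260.0 to 10431 in young injured and 4556 to 7097 in middle-aged injured libraries, and none is at 0. Beside Megf10, 4 of 5 astrocyte markers (Gfap, Aqp4, Aldh1l1, Slc1a3 and Gja1) fell at both ages. Their log2 fold changes lay between -1.52 and -0.13 in young and between -2.17 and -0.17 in middle-aged mice, and their sum was 8326 to 10484 CPM in young naïve, 8463 to 9248 in middle-aged naïve, 4454 to 5138 in young injured and 3267 to 4550.4 in middle-aged injured libraries. Of 4 neuronal markers (Rbfox3, Snap25, Syt1 and Slc17a6), 2 fell in young mice, and 3 fell and 1 rose in middle-aged mice. Endothelial markers (3 of 4 higher at both ages) and fibroblast markers (4 of 4 higher) also moved with injury. Of 3 progenitor markers (Pdgfra, Cspg4 and Ptprz1), 2 were higher at both ages, and Ptprz1 was lower in middle-aged mice. Whether any of these cells account for the values of Tyro3 or Megf10 was not tested.

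To describe which genes followed the same course, the log2 CPM of each gene was centred on its own mean, and genes were ranked by the root mean square difference from each of the 8 genes over the 12 libraries, among 13085 genes. Nearest to Mertk were Sirpa (0.134), the receptor for the CD47 signal that restrains phagocytosis, and Ezr (0.154), which links actin to the membrane. Sirpa was also second nearest to Pros1 (0.193), after Rai14 (0.162). Tyro3 was nearest to Gpr37 (0.112), a receptor known from oligodendrocytes, and Tmem125 (0.121). Nearest to Axl were Asah1 (0.141), lysosomal acid ceramidase, and Celf2 (0.152), and to Lrp1 Tor2a (0.159) and Dtx4 (0.182). Gas6 had Hpcal1 (0.119) and Mlx (0.127) nearest, Megf10 had Cyp2j9 (0.122) and Ank3 (0.126), and Mfge8 had Zkscan6 (0.141) and Ehd1 (0.152). Among the members themselves, Mertk and Pros1 (0.208) and Axl and Lrp1 (0.215) were the closest pairs, and the next, Mertk and Axl, were at 0.389. These distances describe 12 libraries that share the injury contrast and carry no test.

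The other genes of the pathway were taken from a fixed list of 62, of which 59 were tested. In young mice 31 were higher after injury, 7 lower and 21 did not pass, and in middle-aged mice 36 were higher, 9 lower and 14 did not pass. Over all genes tested, 28.3% were higher and 26.3% lower in young mice, and 29.2% and 29.3% in middle-aged mice. The same shares stand beside the injury counts of each list below. The median log2 fold change was 1.02 in young and 0.87 in middle-aged mice, beside medians over all genes tested of 0.00 and -0.03.

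Of 18 other recognition receptors and bridges tested, 13 were higher and 2 lower in young mice, and 15 and 2 in middle-aged mice. Thbs1 (thrombospondin 1, a bridge from dying cells to integrins) had log2 fold changes of 8.16 (standard error 0.35) in young and 8.92 (standard error 0.35) in middle-aged mice. Lgals3 (galectin 3, also reported as a ligand of Mertk) rose by 8.55 (standard error 0.42) and 6.06 (standard error 0.34), and Cd300lb, a receptor that binds exposed phosphatidylserine, by 6.77 (standard error 0.48) and 6.28 (standard error 0.42), in young and middle-aged mice. Young naïve libraries held only 8 to 15 counts of Thbs1, 9 to 19 of Lgals3 and 0 to 10 of Cd300lb. Middle-aged naïve libraries held 13 to 17, 59 to 205 and 5 to 13. Most of these fold changes thus start from few counts. The members that fell were Edil3, a relative of Mfge8 that bridges the same lipid to integrins, at -1.95 and -2.32, and Adgrb1 (BAI1), a phosphatidylserine receptor, at -1.19 and -2.0 in young and middle-aged mice.

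Of 15 genes of engulfment signalling, 4 were higher and 3 lower in young mice, and 7 and 2 in middle-aged mice. Over all genes tested the shares were 28.3% higher and 26.3% lower in young mice, near which the young counts lie, and 29.2% and 29.3% in middle-aged mice. Rac2 and Dock2, the haematopoietic Rac GTPase and its activator, had log2 fold changes of 4.59 and 4.53 in young and 4.57 and 3.73 in middle-aged mice. Rac2 had only 5 to 14 counts in the young naïve and 9 to 15 in the middle-aged naïve libraries. Ptk2 (focal adhesion kinase) was lower at -0.82 and -0.70, and Elmo1, the partner of the Dock proteins, at -0.37 and -0.42.

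Of 10 genes for phosphatidylserine exposure and for signals that restrain phagocytosis, 3 were higher and 1 lower in young mice and 3 and 3 in middle-aged mice. Over all genes tested, 28.3% were higher and 26.3% lower in young and 29.2% and 29.3% in middle-aged mice, near which the middle-aged counts lie. The median log2 fold change of the list was 0.05 in young and -0.05 in middle-aged mice. Sirpa rose by 2.52 and 2.14, Ano6, a scramblase that exposes the lipid, by 1.81 and 1.64, and Calr (calreticulin, a ligand of Lrp1) by 1.66 and 1.83. Tmem30a, the subunit of the flippases that return the lipid inside, was lower at -0.55 and -0.41.

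Of 11 genes tested that act on the TAM receptors or their ligands, 9 were higher at both ages by edgeR. None was lower at either age by edgeR, at an unadjusted p under 0.05 (10 higher in young and 9 in middle-aged mice) or by DESeq2 (11 and 9 higher). Socs3, a brake on cytokine signalling that TAM receptors are known to induce, rose by 5.15 and 4.004, and Twist1, a transcription factor in the same circuit, by 1.82 and 1.75. Both were low in young naïve libraries, with 5 to 12 counts of Socs3 and 3 to 21 of Twist1. Adam17, the protease that sheds Mertk from the cell surface, rose by 1.37 in young and 2.05 in middle-aged mice, and Adam10, another sheddase of this kind, by 1.02 and 1.05. Rxra, the partner of the nuclear receptors that control Mertk, rose by 1.08 and 0.99, and Ggcx, the carboxylase that vitamin K-dependent Gas6 and protein S need, by 1.11 and 0.87.

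Of 5 partners of Lrp1, 2 were higher at both ages, and 1 was lower in young and 2 in middle-aged mice. Over all genes tested, 28.3% were higher and 26.3% lower in young mice, and 29.2% and 29.3% in middle-aged mice. Apoe, a lipoprotein ligand, rose by 2.28 and 1.49, and Lrpap1, the chaperone of the receptor, by 0.56 and 0.71. Plat (tissue plasminogen activator) was lower at -0.40 and -0.39.

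Between ages, 10 of the 59 genes were higher and 1 lower in middle-aged naïve mice, and 1 was higher in middle-aged injured mice. Over all genes tested, 3.80% and 1.15% were called in these comparisons, in either direction. By edgeR 0 passed for the difference of the injury effects, where 16 had an unadjusted p under 0.05, as had 1574 of all 15866 genes. DESeq2 called 5 there, and 228 of 15016 over all genes. The values called in naïve mice, named after they were seen, included Lgals3 (log2 3.28, standard error 0.42), Havcr2 (TIM-3, a relative of Timd4, 1.27, standard error 0.20) and Sirpa (0.65, standard error 0.12), and the one that was lower was Adam17 (-0.60, standard error 0.12). In injured mice it was Thbs1 (1.13, standard error 0.23).

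**Figure D4:**
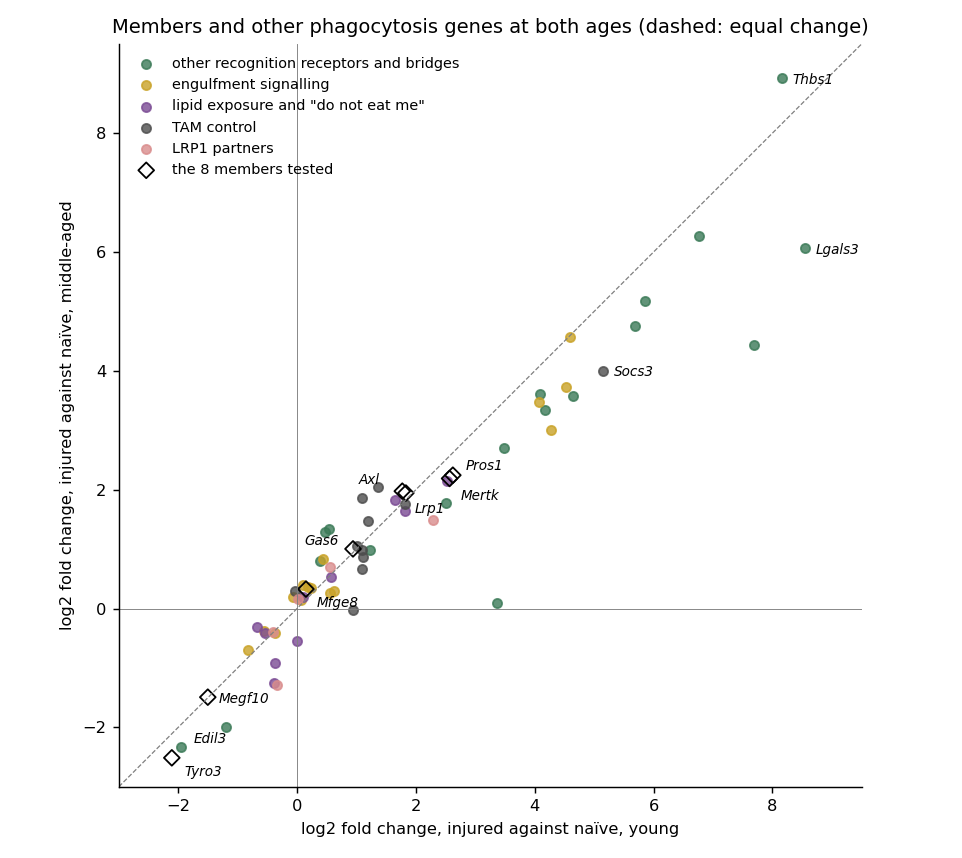
Each point is 1 gene, with its log2 fold change after injury in young mice on the horizontal and in middle-aged mice on the vertical axis, coloured by list, open diamonds for the 8 members tested and a dashed line for equal change. Thbs1 lies furthest out at 8.16 and 8.92, and Tyro3 lies lowest at -2.11 and -2.51.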

How the data were processed

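RNA was sequenced on an Illumina NextSeq500 from 12 libraries of laser-captured white matter, 3 in each of 4 groups, with the group and replicate number taken from the sample labels. Libraries were built with amplification. The authors checked reads with FastQC 0.11.4, mapped them to GRCm38 (TopHat 2.0.10, bowtie 1.1.2) and counted them per gene with featureCounts, and the deposited values are these counts without normalization. The strand setting, the annotation release and the handling of shared reads are not given in the sources used here.

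Counts were analysed with R 4.3.3 and edgeR 4.0.16 (trimmed mean of M values, TMM, with filterByExpr, then glmQLFit and glmQLFTest), a coefficient for each group over all 12 libraries, an adjusted p threshold of 0.05 and SE as the log2 fold change over the square root of F. CPM per kb used the union of exons in GENCODE vM21, and promoter windows came from RefSeq (8 of the 9 genes were searched) and were shortened to the 250 bases before the start. Shares and ratios were compared with 2-sided exact permutation tests (Python 3.11.15, numpy 2.4.6), which for 3 libraries against 3 within 1 age cannot go below 0.1. Depth was 9834447 to 12807437 counts per library. Since reads of amplified RNA are not separate molecules, the intervals of the Timd4 ratios and the floors cover counting error only. The intervals of log2 fold changes were built from the edgeR standard error and include the spread between libraries. The steps were tested on simulated data. The simulation of the edgeR fit changed 200 genes, whereas 8660 genes in young and 9283 in middle-aged mice were called after injury. It therefore does not cover a change of that width.

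All 9 genes were named with their values in every library, from each list the genes at either end of the log2 fold changes (at most 2 per end) among those called at both ages without overlap, and for each member the 2 nearest genes with a mean log2 CPM of at least 1. The members and lists were chosen with earlier results of these data known. Alternatives were 3 other scalings, DESeq2 1.42.0, 2 other filters, the replicate number as a block, only the libraries compared, each library left out in turn, the longest transcript as length and a prior count of 0.5. The permutation test and the ratios of Timd4 were chosen after the data were seen. The results for 3 further genes of the lists are not reported here and do not enter their counts. The cultured cells and the histology of the study were not analysed here.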

Additional observations from a re-analysis of the deposited data

How the results depend on the processing

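With 8 alternative fits and each of the 12 libraries left out in turn, the 5 rises and 2 falls after injury kept their direction and stayed past the threshold at both ages. Timd4 entered the fit without a filter (5.65 in young and 2.79 in middle-aged mice on the log2 scale, adjusted p = 0.00235 and 0.0312, edgeR), values that depend on the prior count. Between naïve groups DESeq2 called 2 members higher, and in the fit of only the libraries compared 1 member was lower between injured groups. Library totals as the only scaling moved the median log2 fold change of all genes after injury in young mice from 0.00 to 0.20 and the share of higher among called genes from 51.8% to 62.4% (in middle-aged mice from 49.9% to 55.5%).

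Age differences near 0 changed sign. With library totals the log2 value was -0.02057 for Axl between injured groups, 0.02344 for Megf10 between naïve groups and, for the difference of injury effects, -0.01724 for Gas6 and -0.08422 for Megf10. For Megf10 between injured groups it was 0.01355 with DESeq2, 0.01238 with RLE factors and 0.005786 with the replicate block, and for Lrp1 between naïve groups -0.006079 without a filter and -0.003891 with upper-quartile factors. The ratio of ligands to receptors after injury was 0.008855 with the longest transcript.

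With each library left out, the members higher between naïve groups numbered 0 to 2. The log2 age difference ranged from -0.05109 to 0.1608 for Axl in injured mice, from -0.1741 to 0.1885 for Megf10 in naïve and from -0.08655 to 0.1509 in injured mice, from -0.1793 to 0.2002 for Lrp1 in naïve mice and from -0.1888 to 0.0744 for Mfge8 in injured mice. The difference of injury effects ranged from -0.06678 to 0.3315 for Gas6, from -0.1892 to 0.1737 for Megf10, from -0.08262 to 0.2967 for Lrp1 and from -0.02464 to 0.339 for Mfge8. The age effect ranged from 3.038 to 4.151 points for the share of Mertk, from -0.4735 to -0.3102 for the log2 ratio of Axl to Mertk and from -0.2185 to 0.08303 for that of Gas6 to Pros1.

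The same replicate numbers did not mark pairs, since deviations of same-numbered libraries correlated with r of -0.113 to 0.153 over 18 pairs, 2 of them over 0.1. The replicate block moved no count of called members in edgeR. For shares and ratios it left the values as they were, at 22.14 (Axl), 14.76 (Mertk) and -36.89 (Tyro3) points for injury, 3.504 points for the Mertk share with age, and log2 ratios of -0.5039 (Axl to Mertk), 4.158 (Axl to Tyro3), 4.661 (Mertk to Tyro3) and -1.431 (Gas6 to Pros1) for injury and of -0.3868 (Axl to Mertk) and 0.6722 (Mertk to Tyro3) for age. Its 64 arrangements allow no p below 0.03125, and the adjusted p of these exact tests were 0.05 to 0.125, none under the threshold. With so few arrangements this says nothing about stability.

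Counts over all genes depend on the tool. Between naïve groups 603 genes were called, against 1073 with DESeq2, 1153 without a filter and 71 in the fit of only the libraries compared. Between injured groups the counts were 182, 441, 437 and 818, and for the difference of injury effects 22, 228 (DESeq2) and 329 (no filter). With each library left out they ranged from 261 to 800, from 45 to 410 and from 3 to 56. With library totals the share of higher among the genes called for the difference of injury effects was 25.8%, against 40.9%. The cause was not tested.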
